A study of Homo sapiens with 2 samples.

Results

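Collagen chain genes were read on 1 array of MDA-MB-231 cells with stable knockdown of UGT8 and on 1 control array of the parental cells. The members were every probe set whose single gene symbol in the platform annotation has the form of a collagen chain (COL, a type number, A and a chain number). These were 121 probe sets of 43 genes, among 45278 probe sets of 18244 genes with a single symbol. The genes fall into 11 fibrillar, 9 network-forming, 10 FACIT, 5 beaded and 3 transmembrane chains. A further 5, COL7A1, COL15A1, COL18A1, COL26A1 and COL28A1, belong to none of these classes and are given as other chains. MDA-MB-231 is a human breast carcinoma line of mesenchymal character. Both cultures were kept in DMEM with 5.6 mmol/L glucose and harvested 48 h after passage. UGT8 makes galactosylceramide. Since a single clone was set against its uncloned parental line, effects of cloning and of UGT8 knockdown cannot be told apart. The knockdown reagent is not given in the sources used here.

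Collagens are trimers of chains that wind into a helix along repeats of glycine and other residues, many of them proline and hydroxyproline. Fibrillar collagens build the banded fibrils of connective tissue, and FACIT collagens sit on the surface of such fibrils. Network collagens form sheets, among them the type IV sheet of basement membranes, and beaded collagen VI forms microfilaments around cells. Some chains pair only with particular partners, so a trimer can depend on several genes. Carcinoma cells make some collagens themselves, while the bulk of the collagen of a breast tumour comes from fibroblasts.

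All values below are RMA values on the log2 scale, and each difference is the knockdown value minus the control value. With 1 array per group no difference has a replicate check and no test was run, so each describes these 2 arrays. A gene was read by its brightest probe set, the one with the highest mean over both arrays. Levels are compared between arrays only, not between genes, because probe sets differ in their affinity. The floor used here as a mark of low signal was the median of the mean level over all probe sets other than controls, at 6.64. In such bulk RNA, fewer cells that make a collagen and less RNA per cell cannot be told apart.

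The target UGT8 read 6.61 on the knockdown array and 8.95 on the control array in its brightest probe set, a difference of -2.34. Its other probe sets differed by -1.68 and -2.27. Both arrays had a median of 6.64, and the median difference over all genes was 0.02. The hybridisation control RNAs had a median difference of 0.51, and the poly-A control RNAs one of 0.08. The excess of the 3' over the 5' probe set of ACTB was 0.90 on the knockdown array and 0.49 on the control array, and that of GAPDH was 0.19 on the knockdown and 0.18 on the control array. The part of these readings in the differences below was not tested. Of the 7 genes taken as present in MDA-MB-231 cells, all read above the floor on both arrays, VIM at 13.89 on the knockdown and 13.88 on the control array. Of the 7 taken as low or absent, ESR1, PGR and KRT5 read below the floor on both arrays, and ERBB3 and FOXA1 lay close to it. GATA3 (8.51 knockdown, 8.73 control) and CDH1 (7.66 knockdown, 8.01 control) read above it, against that expectation.

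Collagen genes that gave a clear signal were mostly lower on the knockdown array, and none was 1.5-fold higher. Of the 43 genes, 31 lay below 0, 10 above 0 and 2, COL11A1 and COL14A1, read the same on both arrays. The share of all genes below 0 was not taken, so counts below 0 here and further on are descriptions. At least 2-fold, 4 genes were lower, COL3A1, COL12A1, COL6A3 and COL6A2, which is 9.30% of the collagen genes, against 1.04% of all 18244 genes. None was at least 2-fold higher, against 0.647% of all genes. At least 1.5-fold, 11 were lower (25.6%), against 4.39% of all genes, and none was higher, against 3.87% of all genes. The median difference of the 43 genes was -0.11, beside 0.02 over all genes. Directions are relative to the typical gene: on a scale centred on the hybridisation controls, which lowers every difference by 0.51, all 43 lay below 0, and on a scale centred on the poly-A controls 36 did.

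The differences were held by the chains with signal above the floor. Past the floor on mean level lay 16 collagen genes, of which 15 were below 0 and COL4A1 was above. Of these 16, 10 were at least 1.5-fold lower (62.5%), against 6.74% of the 10439 genes past the floor, and 4 were at least 2-fold lower (25%), against 1.54%. None of the 16 was higher by 1.5-fold or 2-fold, against 4.96% and 0.738% of genes past the floor. Their median difference was -0.65, beside 0.03 for all genes past the floor. COL4A6 crossed the floor on the knockdown array alone. The other 26 genes were below the floor on both arrays, where a change in a scarce transcript is hard to see. Their differences ran from -0.60 to 0.29 with a median of -0.04. Because the floor uses the same arrays, the figures past it are a description and add no support.

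**Figure D1:**
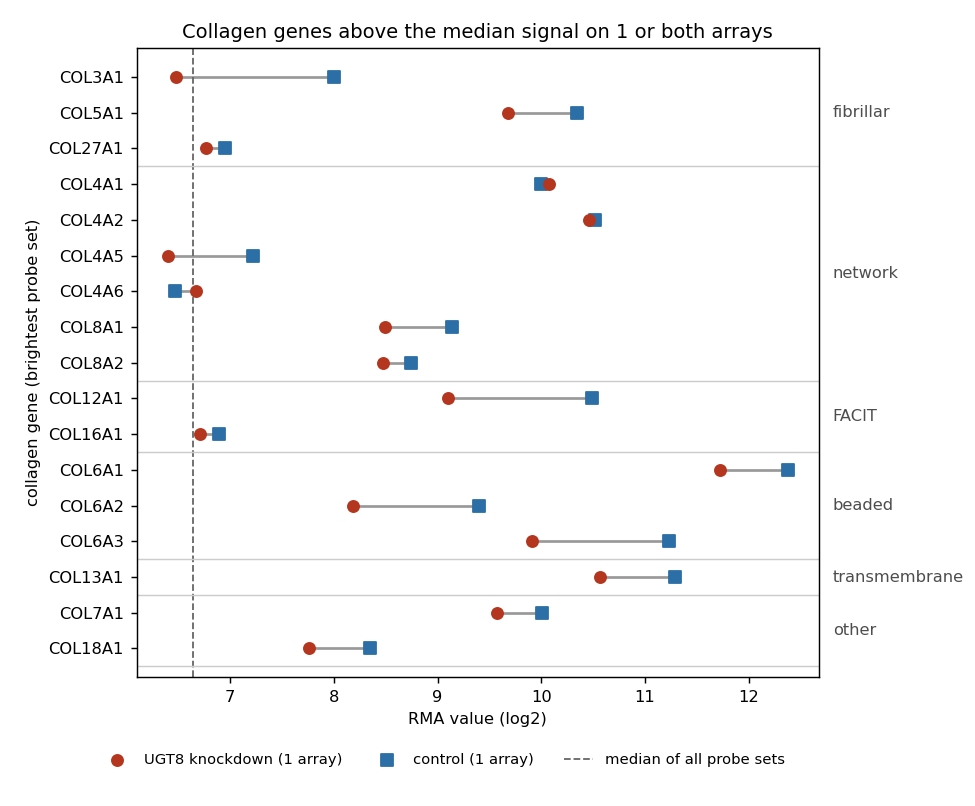
RMA values (log2, horizontal axis) of the 17 collagen genes above the floor (dashed line, 6.64) on 1 or both arrays, grouped by class, with the UGT8 knockdown array as red circles and the control array as blue squares. The knockdown circle lies left of the control square for 15 genes, and right of it for COL4A1 and COL4A6; positions of different genes are not comparable.

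Among the fibrillar chains, COL3A1 differed most, and the chains of type I collagen stayed at low signal. COL3A1, the chain of the type III homotrimer of soft connective tissue, read 6.48 on the knockdown array and 8.00 on the control array, a difference of -1.53 (2.88-fold lower). The knockdown value lay under the floor and the control value above it. All 5 COL3A1 probe sets were lower, with differences from -1.69 to -0.44, and the brightest without a cross-hybridisation mark read 5.38 on the knockdown and 7.07 on the control array (-1.69). Among the 10439 genes past the floor, COL3A1 ranked 33 from the lowest difference.

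COL5A1, a chain of the type V collagen that starts fibrils, read 9.68 on the knockdown array and 10.35 on the control array (-0.67, 1.59-fold lower). Its 4 probe sets, all past the floor, were all lower, with differences from -0.67 to -0.26. The brightest probe set is marked for possible cross-hybridisation. Of the 2 unmarked probe sets, the brighter read 9.42 on the knockdown and 9.68 on the control array (-0.26), and the other read 8.41 on the knockdown and 8.99 on the control array (-0.59, at the 1.5-fold limit). Its partner chain COL5A2 stayed below the floor at 5.67 on the knockdown and 5.76 on the control array (-0.10), with differences between -0.10 and 0.34 over 6 probe sets. The third chain, COL5A3, read 5.06 on the knockdown and 5.10 on the control array (-0.04).

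Type I collagen, the main collagen of bone and skin, is a trimer of COL1A1 and COL1A2. COL1A1 read 6.13 on the knockdown array and 6.04 on the control array (0.09), and COL1A2 read 5.58 on the knockdown and 5.47 on the control array (0.11). Both were under the floor on both arrays. The 11 probe sets of these 2 genes ran from -0.33 to 0.30, so no direction was shared. COL27A1, a fibrillar chain of cartilage, read 6.77 on the knockdown array and 6.95 on the control array (-0.18). The cartilage chains COL2A1, COL11A1 and COL11A2 differed by -0.03, 0.00 and -0.03, and COL24A1 by 0.09, all below the floor. Of the 11 fibrillar genes, 2 were at least 1.5-fold lower, and the median of the class was -0.03. Over the 3 of them past the floor it was -0.67.

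Among the network-forming chains, COL4A1 and COL4A2 hardly differed, while COL4A5 and COL8A1 were at least 1.5-fold lower. COL4A1 and COL4A2 form the most widespread basement membrane trimer. COL4A1 read 10.08 on the knockdown array and 10.00 on the control array (0.08), and COL4A2 read 10.46 on the knockdown and 10.52 on the control array (-0.06). The gap between both partners was 0.14, beside 0.08 for the median SD between probe sets of 1 gene over the 6067 genes that had 2 or more of them past the floor. That SD covers disagreement of probe sets on these 2 arrays and is no replicate error. The probe sets past the floor gave 0.08 and 0.15 for COL4A1 and -0.06 to -0.18 for COL4A2. For both genes the brightest probe set is marked for possible cross-hybridisation, and the brightest unmarked ones gave 0.15 and -0.18. COL4A1 turned to -0.03 when all its probe sets were averaged, a dim one included, and to -0.43 on the scale of the hybridisation controls.

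COL4A5, which joins either COL4A3 and COL4A4 or COL4A6 in kidney and other basement membranes, read 6.40 on the knockdown array and 7.22 on the control array (-0.82, 1.77-fold lower). This value comes from 1 probe set marked for possible cross-hybridisation. The next probe set, unmarked, read 6.35 on the knockdown and 6.65 on the control array (-0.30), and the third differed by -0.21. All 3 were lower, but 1 of them reached 1.5-fold. COL4A6 read 6.67 on the knockdown array and 6.47 on the control array (0.21), while its 7 probe sets ran from -0.19 to 0.21 and averaged 0.02. On the scale of the hybridisation controls COL4A6 differed by -0.31. COL4A3 and COL4A4 stayed below the floor (-0.04 and -0.36).

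The type IV genes lie in head-to-head pairs that are transcribed away from a shared promoter, so 1 stretch of DNA serves both genes. In RefSeq's annotation of GRCh38.p14, 126 bases separate the starts of COL4A1 and COL4A2. From the start of COL4A5 to the nearest start of COL4A6 there are 379 bases. A further annotated COL4A6 start lies farther away, so the shared stretch covers the nearest one only. The whole stretch between COL4A1 and COL4A2 (chr13:110307158-110307283, plus strand) and the 250 bases before the start of COL4A5 (chrX:108439588-108439837, plus strand) are shown. They were chosen because the brightest probe sets had a gap of 0.14 in the first pair and of 1.03 in the second. That contrast is smaller in the brightest unmarked probe sets. These differed by 0.15 and -0.18 for COL4A1 and COL4A2, and by -0.30 and 0.21 for COL4A5 and COL4A6. Capitals mark 4 short motifs on either strand, the TATA box with the letters TATAAA, the CCAAT box with its own letters, the GC box bound by SP1 with the letters GGGCGG, and CAGAC, an element bound by SMAD proteins.
COL4A1-COL4A2: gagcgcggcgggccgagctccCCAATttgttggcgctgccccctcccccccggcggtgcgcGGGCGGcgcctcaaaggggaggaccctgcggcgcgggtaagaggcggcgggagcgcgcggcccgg
COL4A5: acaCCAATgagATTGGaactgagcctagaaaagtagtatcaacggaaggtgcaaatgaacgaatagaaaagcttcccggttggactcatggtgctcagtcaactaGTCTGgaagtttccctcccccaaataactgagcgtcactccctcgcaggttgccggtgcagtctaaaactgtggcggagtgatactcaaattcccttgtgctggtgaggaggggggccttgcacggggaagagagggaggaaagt
The COL4A1-COL4A2 stretch is 80.2% G and C, with 20 CpG sites, 1 CCAAT box and 1 GC box. The COL4A5 stretch is 51.2% G and C, with 8 CpG sites, 2 CCAAT boxes, 1 on each strand, and 1 CAGAC element. No match overlapped another in the stretches printed. Such matches describe the letters and are not shown to be bound sites.

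Type VIII collagen, found under endothelium and in the eye, is made of COL8A1 and COL8A2. COL8A1 read 8.49 on the knockdown array and 9.14 on the control array (-0.65, 1.56-fold lower) in the only one of its 3 probe sets past the floor. Averaged with the dim ones it differed by -0.23. COL8A2 read 8.47 on the knockdown array and 8.74 on the control array (-0.27), and a dim second probe set differed by -0.44. COL10A1, a chain of growth plate cartilage, was below the floor on both arrays (-0.30). Of the 9 network genes, 2 were at least 1.5-fold lower, and the median of the class was -0.27.

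Of the FACIT chains, only COL12A1 was at least 1.5-fold lower. COL12A1, whose product binds type I fibrils and is made in dense connective tissue, read 9.11 on the knockdown array and 10.49 on the control array (-1.38, 2.61-fold lower). A second probe set past the floor read 6.69 on the knockdown and 7.91 on the control array (-1.22). The 2 remaining probe sets were dim on both arrays (-0.14 and 0.09), so that an average over all 4 was -0.66. COL12A1 ranked 49 from the lowest difference past the floor. COL16A1 read 6.71 on the knockdown array and 6.89 on the control array (-0.19). The other 8 genes (COL9A1, COL9A2, COL9A3, COL14A1, COL19A1, COL20A1, COL21A1 and COL22A1) were below the floor on both arrays, with differences from -0.27 to 0.29. The largest of these, that of COL9A1, was the highest of any collagen gene, at 6.33 on the knockdown and 6.03 on the control array. The median of the 10 FACIT genes was -0.12, and that of the 2 past the floor was -0.79.

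**Figure D2:**
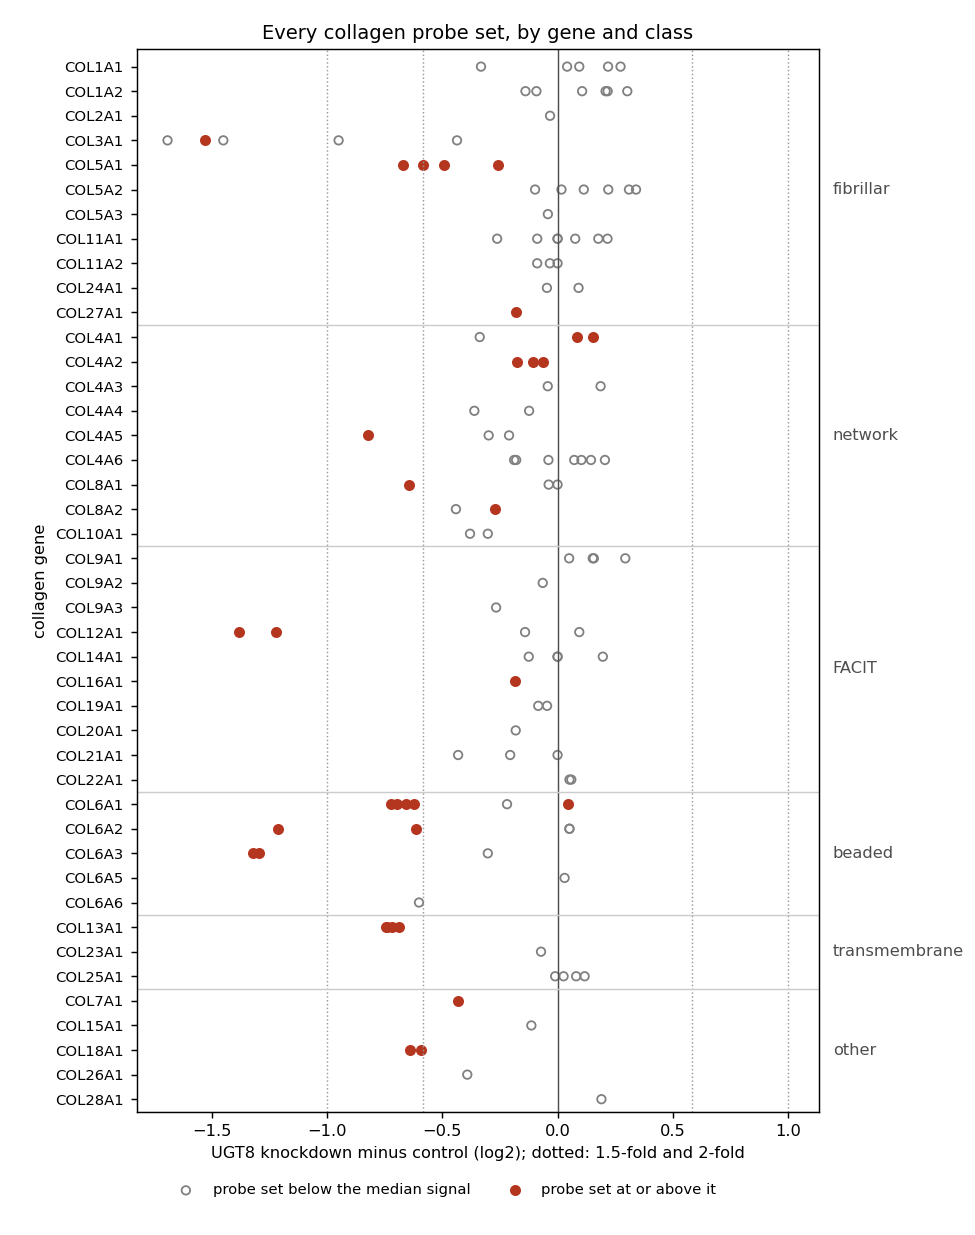
Difference of each of the 121 collagen probe sets, UGT8 knockdown minus control (log2, horizontal axis), by gene and class. Filled red points are probe sets at or above the floor on mean level and open points lie below it; dotted lines mark 1.5-fold and 2-fold. The 25 probe sets at least 1.5-fold lower belong mainly to COL3A1, COL5A1, COL6A1, COL6A2, COL6A3, COL12A1, COL13A1 and COL18A1, and none is 1.5-fold higher.

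All 3 chains of the type VI trimer were lower together. Type VI collagen is assembled inside the cell from COL6A1, COL6A2 and COL6A3 and is secreted as beaded filaments that link cells to the matrix. COL6A1 read 11.72 on the knockdown array and 12.38 on the control array (-0.66, 1.58-fold lower). COL6A2 read 8.19 on the knockdown array and 9.40 on the control array (-1.21, 2.32-fold lower). COL6A3 read 9.91 on the knockdown array and 11.23 on the control array (-1.32, 2.50-fold lower). The 3 chains thus lay between -1.32 and -0.66, a gap of 0.66.

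The probe sets of COL6A1 gave -0.66, -0.70, -0.72 and -0.62 in the 4 brightest, while 1 dimmer probe set past the floor gave 0.04. COL6A3 gave -1.32 and -1.29 in its 2 probe sets past the floor. COL6A2 is less settled: its brightest probe set is marked for possible cross-hybridisation, and the brightest unmarked one read 7.55 on the knockdown and 8.17 on the control array (-0.61). The mean over all 4 COL6A2 probe sets was -0.43. COL6A6, a chain that can take the place of COL6A3, read 5.64 on the knockdown array and 6.25 on the control array (-0.60) in 1 probe set under the floor. COL6A5, a further chain of this kind, read 3.97 on the knockdown array and 3.94 on the control array (0.03). The beaded class, where 4 of 5 genes were at least 1.5-fold lower, had a median of -0.66, the lowest of the classes. These class medians include dim members. Over genes past the floor the median was -1.21 for 3 beaded, -0.79 for 2 FACIT and -0.67 for 3 fibrillar genes. It was -0.51 for 2 other and -0.27 for 5 network genes, and the 1 transmembrane gene past it differed by -0.72.

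The promoters of COL6A2 and COL6A3, whose transcripts go into the same trimer, are shown to set their letters side by side. They are the 250 bases before the start of COL6A2 (chr21:46097862-46098111, plus strand) and of COL6A3 (chr2:237414165-237414414, minus strand) in GRCh38.p14, with the same 4 motifs in capitals. The table used held no window for COL6A1.
COL6A2: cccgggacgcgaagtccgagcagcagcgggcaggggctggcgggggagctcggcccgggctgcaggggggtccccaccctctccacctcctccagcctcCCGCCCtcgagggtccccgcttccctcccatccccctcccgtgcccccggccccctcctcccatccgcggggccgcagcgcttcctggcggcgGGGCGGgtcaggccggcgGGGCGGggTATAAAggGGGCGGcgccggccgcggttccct
COL6A3: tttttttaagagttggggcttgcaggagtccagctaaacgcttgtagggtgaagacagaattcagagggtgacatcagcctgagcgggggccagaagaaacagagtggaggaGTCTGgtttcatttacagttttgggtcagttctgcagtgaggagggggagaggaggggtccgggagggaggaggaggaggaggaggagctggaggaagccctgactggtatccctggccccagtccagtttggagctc
The COL6A2 stretch holds 28 CpG sites, 4 GC boxes and 1 TATA box, at 79.6% G and C. The COL6A3 stretch holds 3 CpG sites, 1 CAGAC element and none of the other 3 motifs, at 56.0% G and C. Both genes were lower on the knockdown array, and any part of these motifs in that was not tested.

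Over the collagen genes as a whole, 31 had at least 1 window of 300 bases (250 before and 50 after the start) in RefSeq's table, 43 windows in all. A GC box stood in 55.8% of the collagen windows, against 45.0% of all 35116 windows, and a CAGAC element in 39.5%, against 45.3%. A CCAAT box stood in 30.2% of the collagen windows, against 34.6% of all, and a TATA box in 16.3%, against 11.5%. The collagen windows had a median of 64.0% G and C and 17 CpG sites, against 58.7% and 14 over all windows. Windows of neighbouring genes such as COL4A1 and COL4A2 overlap, as do both windows of COL5A1, and the shares are descriptions. COL3A1, COL1A1, COL1A2, COL5A2, COL6A1 and COL8A1 had no window in the table.

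Of the transmembrane chains, COL13A1 was lower in every probe set. COL13A1 encodes a collagen anchored in the plasma membrane at adhesion sites. It read 10.57 on the knockdown array and 11.29 on the control array (-0.72, 1.65-fold lower), and its 4 probe sets, all past the floor, lay between -0.69 and -0.74. COL23A1 (-0.07) and COL25A1 (0.03) were below the floor on both arrays.

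Among the other chains, COL18A1 and COL7A1 were lower. COL18A1, a heparan sulfate collagen of basement membranes whose end fragment is endostatin, read 7.76 on the knockdown array and 8.35 on the control array (-0.59, 1.51-fold lower), and its second probe set gave -0.64. COL7A1, which forms the anchoring fibrils under epithelia, read 9.57 on the knockdown array and 10.00 on the control array (-0.43) in its single probe set. COL15A1 (-0.11), COL26A1 (-0.39) and COL28A1 (0.19) stayed under the floor.

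**Figure D3:**
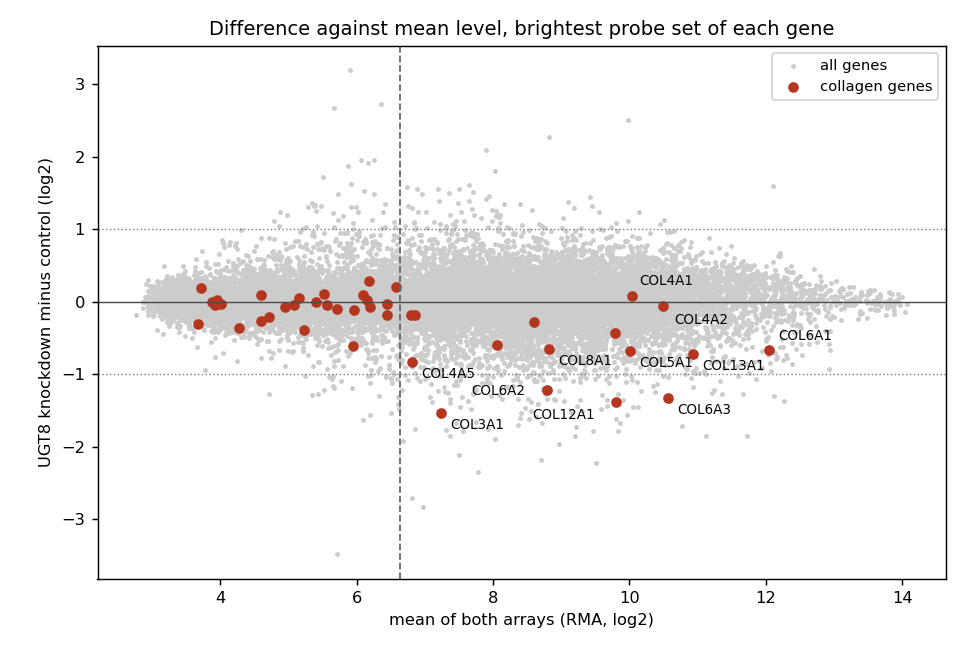
Difference, UGT8 knockdown minus control (log2, vertical axis), against the mean of both arrays (RMA, log2, horizontal axis) for the brightest probe set of each of 18244 genes (grey) and the 43 collagen genes (red). Right of the floor (dashed line), 15 of 16 collagen genes lie below 0, from -1.53 for COL3A1 to -0.06 for COL4A2, and COL4A1 lies at 0.08; dotted lines mark 2-fold.

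Partner chains of 1 trimer were set side by side to see whether they moved together. The chains of type VI were all lower, and those of type I (0.09 and 0.11) and of COL4A1 with COL4A2 lay near 0 together. In type V, COL5A1 differed by -0.67 while COL5A2 and COL5A3, at low signal, differed by -0.10 and -0.04, a gap of 0.63. COL4A5 and COL4A6 differed in sign, with a gap of 1.03, though both lay close to the floor. The COL5A1 and COL4A5 values come from probe sets marked for possible cross-hybridisation. Their brightest unmarked probe sets differed by -0.26 and -0.30, which would narrow each gap given for them here. Marked as well are the brightest probe sets of COL1A2, COL4A1, COL4A2, COL6A1, COL6A2 and COL11A1. The brightest unmarked ones differed by 0.15 for COL4A1, -0.18 for COL4A2, -0.09 for COL1A2 and 0.08 for COL11A1. These chains then lie farther from their partners than given here. COL6A1 and COL6A2 differed by -0.72 and -0.61 and stayed lower. Type VIII chains were both below 0, with a gap of 0.38. COL4A3, COL4A4 and COL4A5 spanned a gap of 0.78, the first 2 of them below the floor. Type IX chains, all below the floor, ran from -0.27 to 0.29, and the type XI chains, also below it, from -0.03 to 0.00. In 7 of the 9 collagen genes with 2 or more probe sets past the floor, each of these was lower. The exceptions were COL4A1 and COL6A1. The matching share over all 6067 genes with 2 or more probe sets past the floor was not taken, so this count is a description. The SD between the probe sets of 1 gene had a median of 0.06 over these 9 collagen genes.

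Genes that modify collagen chains in the endoplasmic reticulum were measured for 13 of 14 listed. Of these 13, 11 lay below 0, with a median of -0.25. At least 1.5-fold, 2 were lower, against 4.39% of all genes, and none was higher, against 3.87%. The same shares of all genes apply to the lists that follow. PLOD2, the lysyl hydroxylase of the telopeptides that decides the type of crosslink, read 10.58 on the knockdown array and 11.83 on the control array (-1.25, 2.38-fold lower), and its 4 probe sets ran from -1.43 to -1.25. P4HA1, a catalytic subunit of prolyl 4-hydroxylase, read 9.95 on the knockdown array and 10.71 on the control array (-0.76). That value comes from a single probe set marked for possible cross-hybridisation. The related subunit P4HA2 differed by -0.04. The lysyl hydroxylases PLOD1 and PLOD3 differed by -0.11 and -0.07 in their brightest probe sets and by -0.19 and -0.36 as means over all their probe sets.

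Among 17 genes of collagen folding and secretion, a 1.5-fold lower value was met by 2 and a higher one by none, with a median of -0.09. FKBP14, a prolyl isomerase, read 7.11 on the knockdown array and 7.84 on the control array (-0.73). SEC24D, a COPII coat subunit needed to export procollagen, read 9.27 on the knockdown array and 9.89 on the control array (-0.62). SERPINH1, the collagen chaperone HSP47, differed by -0.27, and all 3 of its probe sets are marked for possible cross-hybridisation.

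Among 17 genes for propeptide cleavage and crosslinking, 4 reached 1.5-fold on the lower side and none on the higher, with a median of -0.10. ADAMTS14, a protease of procollagen amino-terminal propeptides, read 6.90 on the knockdown array and 8.05 on the control array (-1.14, or -0.80 as the mean of both its probe sets). Among the lysyl oxidases, which start the crosslinks, LOX read 8.91 on the knockdown and 9.78 on the control array (-0.87), LOXL2 differed by -0.69 and LOXL4 by -0.75. LOXL1 was on the other side of 0 (0.27). BMP1, the carboxyl-propeptide protease, differed by -0.58, just short of 1.5-fold, but by -0.20 as the mean over its 5 probe sets.

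Among 12 small proteoglycans and other fibril partners measured, 2 reached 1.5-fold on the lower side and none on the higher, with a median of -0.09. Lumican (LUM), which limits the width of fibrils, read 6.69 on the knockdown array and 8.04 on the control array (-1.34) in a single probe set marked for possible cross-hybridisation. Thrombospondin 2 (THBS2) read 9.72 on the knockdown and 10.51 on the control array (-0.79). Fibronectin (FN1) differed by -0.20.

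Among 12 collagen receptor genes, 5 reached 1.5-fold on the lower side and none on the higher, with a median of -0.10. ITGA10 (-2.83), ITGA1 (-1.76) and ITGA2 (-1.36) encode collagen-binding integrin subunits, and DDR1 (-0.73) a receptor kinase for collagen. Averaged over its 3 probe sets ITGA10 differed by -1.52. MRC2, an endocytic receptor that takes up cleaved collagen, read 8.74 on the knockdown array and 9.67 on the control array (-0.92, or -0.59 over its 4 probe sets). ITGB1, the shared partner of the integrin subunits, differed by 0.03. None of the 9 collagenase genes reached 1.5-fold in its brightest probe set, and their median was -0.04. MMP14 differed by -0.49, MMP1 by 0.10 and CTSK by -0.52. As the mean over its 4 probe sets MMP14 differed by -0.61, past 1.5-fold. The 5 probe sets of MMP13 ran from -0.69 to 0.19. The shares of the 6 lists at least 1.5-fold lower compare with 4.39% of all genes, and those at least 1.5-fold higher with 3.87%. On the hybridisation control scale every member of these lists lies lower by 0.51. The list medians include genes below the floor. ITGA10 (5.55 knockdown, 8.39 control) passed the floor on mean level through the control array alone. So did ITGA1 (6.42 knockdown, 8.19 control), CTSK (6.50 knockdown, 7.02 control) and, among the collagens, COL3A1 and COL4A5. Medians past the floor are therefore only descriptions and add no support. Over members past the floor, the median was -1.14 for 6 receptors and -0.39 for 4 collagenases. It was -0.36 for 10 propeptide and crosslinking genes and -0.36 for 5 fibril partners. For 12 modifying genes it was -0.25 and for 16 folding and secretion genes -0.13, beside -0.65 for 16 collagen genes.

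**Figure D4:**
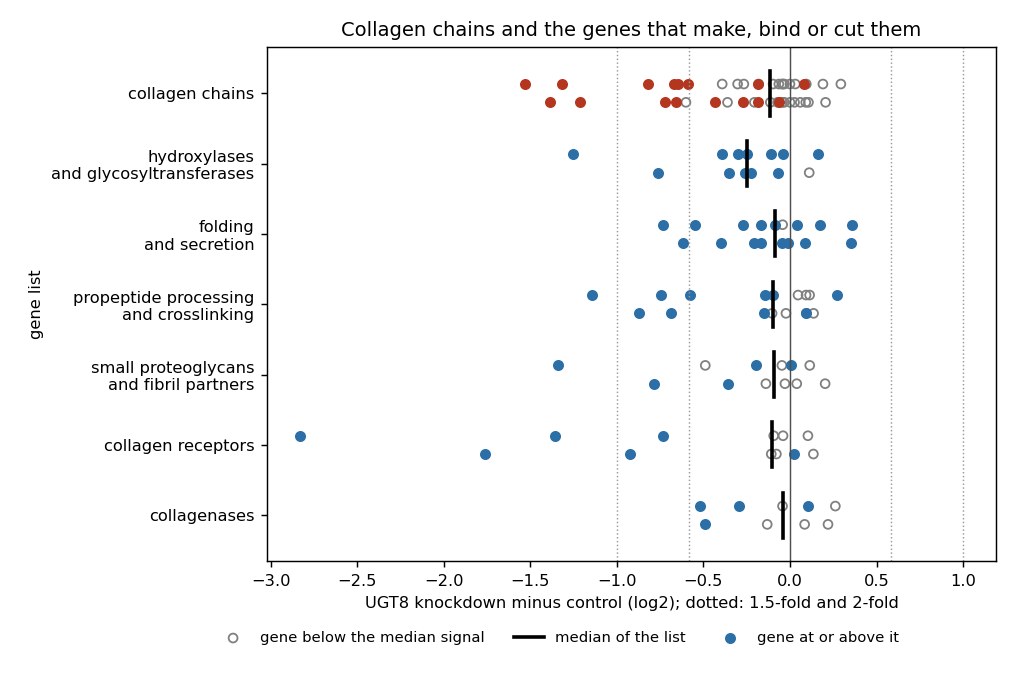
Difference, UGT8 knockdown minus control (log2, horizontal axis), of the collagen genes and of 6 lists of genes that modify, fold, cleave, bind or cut collagen, with 1 point per gene. Filled points (red for collagen chains, blue for the others) are genes at or above the floor, open points lie below it, and black bars are list medians, from -0.25 for the hydroxylases and glycosyltransferases to -0.04 for the collagenases.

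Fibroblasts make much of the type I, III and VI collagen of tissue, so markers of that cell type outside the collagens were read. The 11 markers had a median difference of -0.03, with 6 of 11 below 0. On 1 or both arrays 5 were above the floor, and 2 of the 11 were at least 1.5-fold lower, LUM and PDGFRB, against 4.39% of all genes. PDGFRB read 6.25 on the knockdown array and 7.00 on the control array (-0.75), with its mean level below the floor. Its 3 probe sets ran from -0.75 to -0.07 and averaged -0.37. The LUM value comes from a single probe set marked for possible cross-hybridisation. The other markers above the floor, POSTN, FBLN1 and PI16, differed by -0.45, -0.11 and 0.03. The summed linear level of the 11 was 647 on the knockdown array and 913 on the control array, a sum over unlike probe sets in which LUM has the largest difference. PDGFRA, FAP, THY1, DCN, ASPN and MFAP5 were below the floor on both arrays. Of 5 endothelial markers, PECAM1 read 7.37 on the knockdown array and 8.46 on the control array (-1.09), and CDH5, TEK and VWF were below the floor. KDR, past the floor on its mean level, differed by -0.36, and VWF and TEK by -0.16 and 0.08, and the median of the 5 was -0.16. Their summed linear level, in which PECAM1 has the largest difference, was 392 on the knockdown array and 614 on the control array. The part of other cells in the collagen differences was not tested.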

How the data were processed

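Total RNA of 2 cultures, 1 per group, was extracted with Trizol and labelled with biotin, per the labels. The authors deposited log2 values made by RMA, per the submitters' processing notes. Neither the RMA software nor a genome build is given in the sources used here. RMA normalizes between arrays, which removes a shift common to most transcripts. The table of 49495 probe sets held 102 controls, 45278 probe sets with 1 gene symbol in the platform annotation, 1333 with several and 2782 that the annotation table left unnamed. All 43 collagen symbols were found in RefSeq's table for GRCh38.p14, and probe sets with several symbols were left out. No detection calls were used. The 23 background probe sets ranged from 2.76 to 11.2 on the knockdown and from 2.77 to 11.1 on the control array with their base composition, so the floor is no detection limit.

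Members, classes and lists were chosen with earlier results of these data known. Named were all collagen genes above the floor on 1 or both arrays, dim ones that differed by 1.5-fold or complete a trimer or pair, and list members at least 1.5-fold apart and above the floor on 1 or both arrays. Genes outside this rule, named once their values were known, complete a class or a contrast. No test was run. Groups came from the genotype labels, and the number of arrays limits the precision. Counting was tested on simulated data. Alternatives changed the floor, the fold threshold, the choice of probe sets and the centring (median, loess with a fraction of 0.3, hybridisation or poly-A controls). Python 3.11.15, pandas 2.3.3 and statsmodels 0.14.6 were used.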

Additional observations from a re-analysis of the deposited data

How the results depend on the processing

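No paired analysis was possible because each group holds 1 array. The count of collagen genes at least 2-fold lower was 4 as reported. Counted singly, 8 probe sets of these same 4 genes were at least 2-fold lower. The count of genes was 1 when all probe sets of a gene were averaged, 11 on the scale of the hybridisation controls, 11 at a threshold of 1.5-fold and 0 at 3-fold, and between 3 and 4 under the 3 floors, the other centrings and without marked probe sets. The count at least 2-fold higher was 0 under every alternative run. The median difference of all 43 genes was -0.11 as reported, -0.65 over genes past the median floor, -0.66 past a floor at the 75th percentile, and -0.63 on the hybridisation scale. The floor settings test fewer genes, and the hybridisation scale moves every gene alike. Of the 11 collagen genes at least 1.5-fold lower, all 11 kept their sign in every alternative run, and 6 stayed at least 1.5-fold lower in all of them. COL4A5, COL5A1, COL6A1, COL6A2 and COL8A1 did not, with values nearest 0 of -0.30, -0.26, -0.48, -0.43 and -0.23. The floors leave a gene's value as it is, and each centring lowered all 11. Only the choice of probe sets could therefore turn a sign. COL6A6, 1 of the 6, has a single, unmarked probe set, so no alternative could bring it nearer 0. Leaving out an array leaves no comparison. Dim chains, 26 of 43, limit what can be seen of low collagens.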
